A study of Homo sapiens with 12 samples.

Results

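The collagen genes on the array were taken as every probe set whose only gene symbol has the form of a collagen chain name, COL followed by a type number, A and a chain number. Of 17958 genes measured by a probe set with a single symbol, 42 were collagen genes by this rule. They were represented by 44 probe sets, 3 of them for COL11A2, and where a gene had several, the brightest on average stood for it. The rule used names and mean signal only, not the differences between groups. The genes cover 11 fibrillar chains, 6 basement membrane chains, 3 short-chain network chains, 5 chains of the beaded filament type, 10 fibril-associated chains, 3 transmembrane chains, 2 multiplexins and 2 others. COL7A1 shares its probe set with a microRNA gene and COL17A1 was not analysed here.

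RNA was measured in 231BR cells, a derivative of the human breast cancer line MDA-MB-231 that homes to brain. The 4 groups were 231BR cells given 10 nM estradiol together with mouse astrocytes, the same cells given vehicle together with mouse astrocytes, cells given 10 nM estradiol alone, and cells given vehicle alone, with 3 arrays each and 12 in all. All groups were the same EGFP-carrying human line, derived from a parent line without estrogen receptor alpha. EGFP-positive cells were sorted after 24 h of co-culture. Whether cells grown alone were sorted too is not given here, and an effect of sorting was not tested. By the title of the series, the question was how estrogen reaches such cells through receptor-positive astrocytes. Whether the 3 samples of a group were separate cultures is not stated in the labels, so the spread behind each p-value may be a technical one. A single tumour cell line was used, and astrocyte RNA carried through the sort would be mouse RNA read by human probes, whose contribution was not tested. In such bulk samples, fewer cells of a kind and less RNA per cell cannot be told apart.

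Collagens are secreted or membrane-bound proteins in which 3 chains wind into a rope-like helix. Fibrillar types give tissues tensile strength, type IV forms the sheet of basement membranes, and the fibril-associated types decorate fibril surfaces. Brain tissue has little fibrillar collagen outside vessels and meninges, so a tumour cell that arrives there meets mainly basement membrane collagens around vessels, and it can also make collagen chains of its own.

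The spread of signal was not equal among the arrays. Taken over all genes, the SD of an array's log2 signals was 1.85, 1.26 and 1.69 in the 3 arrays of estradiol with astrocytes and 1.79, 1.49 and 1.68 in vehicle with astrocytes. It was 2.00, 1.88 and 1.95 in estradiol alone and 2.02, 1.96 and 1.77 in vehicle alone. Replicate 2 of estradiol with astrocytes stood furthest apart, with a correlation across genes of 0.558 to 0.674 with the arrays of cells alone, and replicate 2 of vehicle with astrocytes followed at 0.832 to 0.905. Counts over the collagen family are therefore also given without these 2 arrays, and with the array SD as a covariate. For single genes these values are given only in part. No collagen passed as higher over both treatments with that covariate, also where its value is not given. Of 8 genes that mark the line, EGFR, CD44, VIM and MSN passed the test as lower in co-culture over both treatments, where 23.0% of all genes were lower, and none as higher. With the array SD as a covariate these 4 calls were lost (adjusted p = 0.103, 0.418, 0.767 and 0.833), and the keratins KRT8, KRT18 and KRT19 of the same list passed as higher (0.95, 0.93 and 1.01). The keratins also passed as higher without replicate 2 of both co-culture groups (0.60, 0.64 and 0.62), where the 4 lower calls held. The summed signal, as log2, was 11.5 to 13.1 in estradiol with astrocytes, 12.5 to 12.9 in vehicle with astrocytes, 12.9 to 13.1 in estradiol alone and 12.8 to 13.1 in vehicle alone.

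Over both treatments, co-culture with astrocytes went with lower COL12A1, COL8A1 and COL13A1 signals and with higher signals of 20 other collagen genes. COL12A1, the chain of a fibril-associated collagen that links fibrils to their surroundings, fell 3.81-fold. COL11A2, a chain of a minor fibrillar collagen best known from cartilage, was 2.02-fold higher, and COL6A2, a chain of the beaded filament collagen VI, was 1.50-fold higher. The 19 collagen genes that did not pass lay between −0.27 and 0.62 on the log2 scale. Groups of 6 co-cultured and 6 other arrays were compared with limma on 1 mean per group, with Benjamini-Hochberg adjustment across the 17958 genes, and an adjusted p under 0.05 counted as passing. Higher calls were 24.5% of all genes in this comparison and lower calls 23.0%, so the collagen calls stand among a very large number of calls. Without replicate 2 of both co-culture groups 18 collagens passed, 15 higher and 3 lower, and 44.8% of all genes were called.

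The promoters of COL12A1, of the higher genes COL6A2, COL11A2 and COL16A1, and of COL4A2 are shown because these genes carry the contrast between a fall, rises and no call. Each is the RefSeq window on GRCh38.p14 from 250 bases before to 50 after the transcript start, written 5′ to 3′ on the strand of the gene. Capitals mark motif matches on either strand. The TATA box was searched for with the letters TATAAA. The box that binds the nuclear factor NF-Y was searched for with the letters CCAAT. Sites of the GC-box factor SP1 were searched for with the letters GGGCGG. Sites of the AP-1 family were searched for with the letters TGANTCA, where N is any base. Sites of the TEAD family were searched for with the letters GGAATG. COL12A1 lies at chr6:75206004-75206303 on the minus strand, COL6A2 at chr21:46097862-46098161 on the plus strand, COL11A2 at chr6:33193470-33193769 on the minus strand, COL16A1 at chr1:31703968-31704267 on the minus strand and COL4A2 at chr13:110307034-110307333 on the plus strand.
COL12A1: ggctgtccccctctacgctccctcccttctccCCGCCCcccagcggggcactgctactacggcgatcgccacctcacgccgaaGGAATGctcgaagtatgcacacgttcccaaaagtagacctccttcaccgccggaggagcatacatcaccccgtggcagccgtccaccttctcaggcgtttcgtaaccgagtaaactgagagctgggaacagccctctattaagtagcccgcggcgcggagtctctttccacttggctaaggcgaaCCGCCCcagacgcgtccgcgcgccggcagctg
COL6A2: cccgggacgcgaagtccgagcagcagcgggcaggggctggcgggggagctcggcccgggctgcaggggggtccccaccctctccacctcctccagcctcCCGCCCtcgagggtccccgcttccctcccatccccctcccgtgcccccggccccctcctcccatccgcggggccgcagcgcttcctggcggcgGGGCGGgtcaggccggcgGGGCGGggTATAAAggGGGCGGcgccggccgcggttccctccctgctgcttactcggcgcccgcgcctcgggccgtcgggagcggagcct
COL11A2: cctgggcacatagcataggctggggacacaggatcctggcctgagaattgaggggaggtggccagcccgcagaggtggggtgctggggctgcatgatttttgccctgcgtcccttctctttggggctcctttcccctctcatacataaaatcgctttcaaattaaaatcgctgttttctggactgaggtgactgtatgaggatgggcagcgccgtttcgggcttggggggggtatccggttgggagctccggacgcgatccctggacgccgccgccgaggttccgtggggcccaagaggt
COL16A1: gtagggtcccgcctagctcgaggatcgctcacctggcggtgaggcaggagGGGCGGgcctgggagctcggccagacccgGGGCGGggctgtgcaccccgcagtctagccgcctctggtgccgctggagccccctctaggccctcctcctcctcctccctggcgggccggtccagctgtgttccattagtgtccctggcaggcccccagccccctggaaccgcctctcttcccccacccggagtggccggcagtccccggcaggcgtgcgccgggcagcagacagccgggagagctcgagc
COL4A2: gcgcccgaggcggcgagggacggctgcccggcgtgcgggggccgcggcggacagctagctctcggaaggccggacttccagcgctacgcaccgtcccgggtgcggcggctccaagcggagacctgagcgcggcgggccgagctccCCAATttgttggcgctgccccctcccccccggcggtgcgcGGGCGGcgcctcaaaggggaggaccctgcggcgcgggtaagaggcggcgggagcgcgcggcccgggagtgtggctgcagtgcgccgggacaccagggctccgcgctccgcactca

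COL6A2 has a TATAAA at position −32, counted from the transcript start as 0, and 4 GGGCGG matches. COL12A1 has 2 GGGCGG matches and a GGAATG at position −167, and COL16A1 has 2 GGGCGG matches. The COL11A2 window holds none of the 5 motifs. The COL4A2 window holds 1 CCAAT and 1 GGGCGG, and it also holds the start of COL4A1, which is read the other way from a base 127 bases upstream. Of the 42 genes, 30 had a window in the table. GGGCGG was found in 16 of these 30 (53.3%) and in 45.0% of all 35116 windows, CCAAT in 8 (26.7%) and in 34.6% of all, and TATAAA in 3 (10.0%) and in 11.5% of all. GGAATG was found in 1 collagen window, that of COL12A1 (3.33%), and in 14.0% of all windows, and TGANTCA in 0 collagen windows and in 7.71% of all. The matches describe letters and not binding.

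The fibril-associated collagens held both directions. COL12A1 (chr6:75084326-75206053) had log2 signals of 5.24, 4.57 and 4.57 in estradiol with astrocytes and 6.07, 4.58 and 4.38 in vehicle with astrocytes. It had 7.03, 6.79 and 6.84 in estradiol alone and 6.81, 7.04 and 6.45 in vehicle alone. All 6 co-cultured arrays were below all 6 arrays of cells alone, and replicate 1 of vehicle with astrocytes was the nearest to them. Of all genes, 11.3% were lower without overlap in this comparison, and COL12A1 was the only such collagen. Its change was −1.93 (SE 0.27, adjusted p = 0.00273 in limma). It was −1.77 without replicate 2 of both co-culture groups (adjusted p = 0.00419) and −1.44 with the array SD as a covariate (adjusted p = 0.0118), and it passed in each fit that left out 1 array.

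COL16A1 (chr1:31652263-31704017), a minor collagen found at cell-matrix contacts, had signals of 5.33, 6.64 and 5.68 in estradiol with astrocytes and 5.41, 5.93 and 5.68 in vehicle with astrocytes. It had 4.59, 4.97 and 5.06 in estradiol alone and 4.68, 4.81 and 5.20 in vehicle alone. The 6 co-cultured arrays were all above the others, replicate 2 being the highest in each co-culture group. The rise was 0.89 (SE 0.22, adjusted p = 0.0118), and it was 0.24 with the array SD as a covariate, which did not pass. COL9A2, a chain of the cartilage collagen IX, rose by 0.69 (SE 0.19, adjusted p = 0.0146) and COL22A1, known from tissue junctions of muscle and tendon, by 0.76 (SE 0.21, adjusted p = 0.0159). In all, 6 of 10 fibril-associated genes were higher and 1 lower, where 24.5% of all genes were higher and 23.0% lower. The median change of the 10 was 0.52 against 0.07 over all genes. COL9A3, also of collagen IX, was among the 6 higher genes at 0.52 (adjusted p = 0.0481). Its call was lost in 10 of 12 fits that left out 1 array, and it was at 0.36 without replicate 2 of both co-culture groups (adjusted p = 0.128). COL14A1 and COL20A1 were 2 further members whose calls ended without these arrays (0.38 and 0.50, adjusted p = 0.0641 and 0.0830).

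Of the 11 fibrillar chains, 4 were higher and none was lower, where 24.5% of all genes were higher and 23.0% lower. The median change of these chains was 0.45. COL11A2 (chr6:33162694-33193519) had signals of 5.38, 6.50 and 5.65 in estradiol with astrocytes and 5.30, 5.83 and 5.59 in vehicle with astrocytes. It had 4.42, 5.06 and 4.65 in estradiol alone and 4.24, 4.60 and 5.24 in vehicle alone. In this probe set no co-cultured array fell below an array of cells alone, although vehicle alone replicate 3 came close to the lowest of them. In the other probe sets of the gene the arrays overlapped. There vehicle alone replicate 3 (5.19) exceeded replicate 1 of estradiol with astrocytes (4.999) and of vehicle with astrocytes (5.07). The change was 1.01 (SE 0.24, adjusted p = 0.00941). COL5A3 rose by 0.95 (SE 0.25, adjusted p = 0.0143) and COL5A1, the chain that helps start fibrils of type I, by 0.56 (SE 0.17, adjusted p = 0.0238).

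COL1A1, the major chain of type I collagen, was the other fibrillar gene to pass, at 0.62 (SE 0.23, adjusted p = 0.0443). Without replicate 2 of both co-culture groups it was at 0.35 and did not pass (adjusted p = 0.117), and with the array SD as a covariate it was at −0.05 (adjusted p = 0.837). Its signals were 5.45, 6.56 and 5.70 in estradiol with astrocytes and 5.40, 6.08 and 5.47 in vehicle with astrocytes, against 4.84, 5.44 and 5.13 in estradiol alone and 4.86, 5.02 and 5.62 in vehicle alone. The groups overlapped, since vehicle alone replicate 3 exceeded 3 of the 6 co-cultured arrays. Its partner chain COL1A2 was at 0.38 (adjusted p = 0.106) and COL3A1, which accompanies type I in soft tissue, at 0.40 (adjusted p = 0.102). COL27A1 was at −0.04 (adjusted p = 0.813), and its sign turned under quantile scaling (0.26) and under centring on the median (0.04). COL5A2, a partner of COL5A1 in collagen V, was at 0.00 (adjusted p = 0.999).

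The chains of collagen VI, a beaded filament that sits close to cell surfaces, did not move as a unit. COL6A2 (chr21:46098112-46132848) had signals of 7.09, 7.59 and 7.26 in estradiol with astrocytes and 7.27, 7.37 and 7.26 in vehicle with astrocytes. It had 6.62, 6.79 and 6.65 in estradiol alone and 6.70, 6.75 and 6.87 in vehicle alone. The 2 sets of arrays were fully separate and the spread inside each group was small. The rise was 0.58 (SE 0.13, adjusted p = 0.00785), 0.49 without replicate 2 of both co-culture groups (adjusted p = 0.00651) and 0.35 with the array SD as a covariate (adjusted p = 0.0642), where it no longer passed.

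COL6A1 (chr21:45981770-46005048), a neighbour of COL6A2 on the chromosome and the collagen with the brightest probe set, behaved differently. It had 8.53, 7.32 and 8.46 in estradiol with astrocytes and 9.04, 8.31 and 8.30 in vehicle with astrocytes, against 8.48, 8.34 and 8.65 in estradiol alone and 8.44, 8.48 and 8.31 in vehicle alone. Both the highest and the lowest array of COL6A1 were co-cultured, so the groups overlapped. Its change was −0.12 (SE 0.22, adjusted p = 0.651), and the sign turned with quantile scaling (0.35), with the array SD as a covariate (0.47) and without replicate 2 of both co-culture groups (0.14). The difference between COL6A1 and COL6A2 was not tested. COL6A3, the longest chain of collagen VI, was at 0.17 (adjusted p = 0.381), while COL6A6 rose by 0.56 (adjusted p = 0.0187) and COL6A5 by 0.57 (adjusted p = 0.0334).

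**Figure D1:**
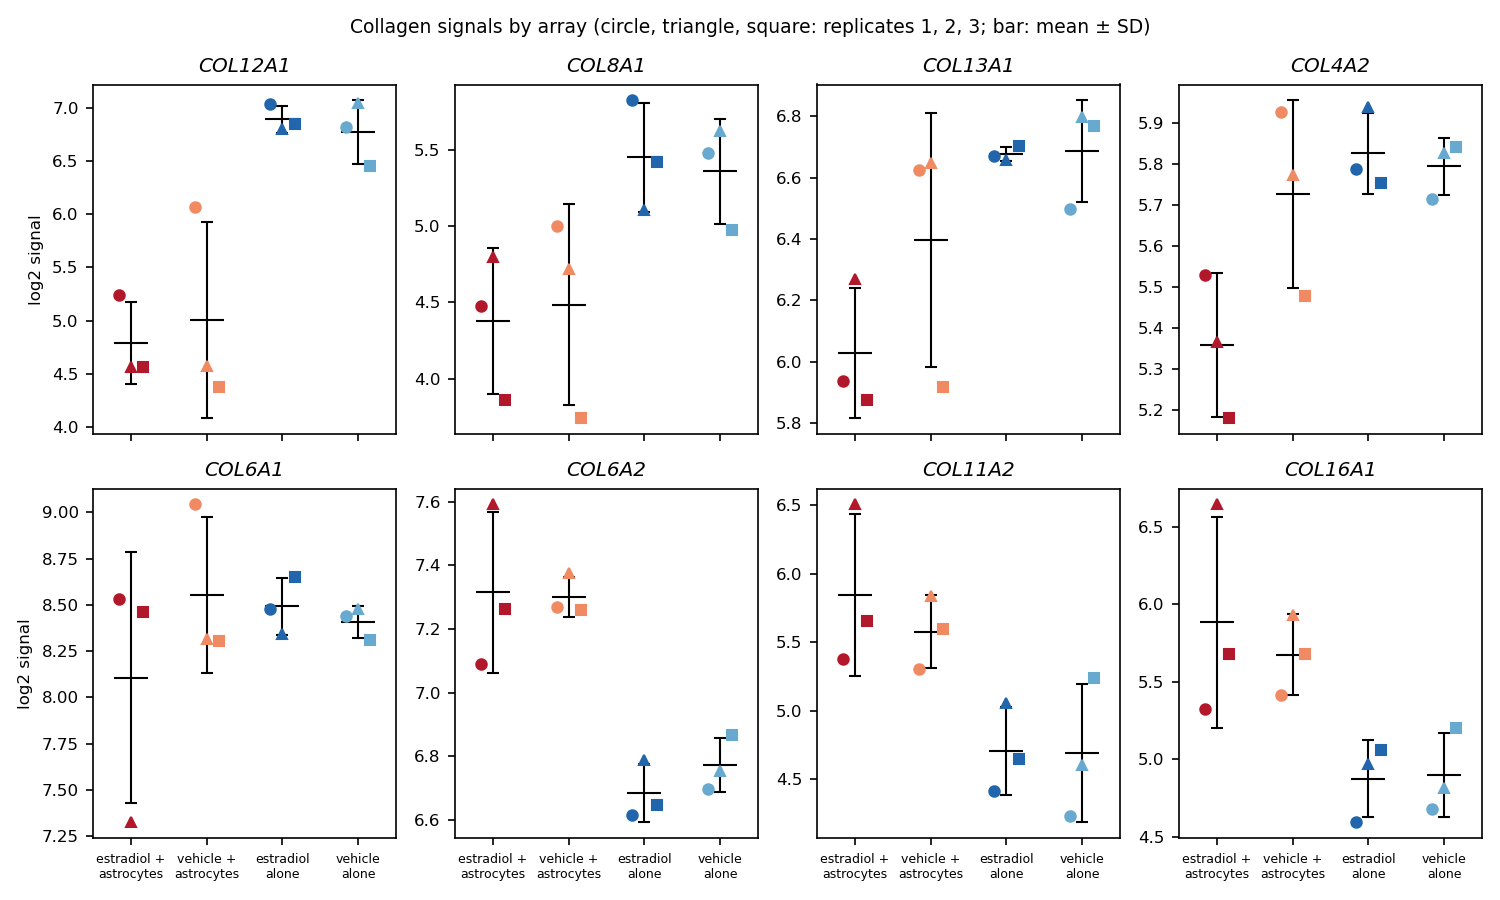
Log2 signal (y axis) of 8 collagen genes in each of the 12 arrays, by group (x axis), with circles, triangles and squares for replicates 1, 2 and 3 and a bar for mean ± SD (n = 3). COL12A1 lies between 4.38 and 6.07 in the co-cultured arrays and between 6.45 and 7.04 in cells alone, COL6A2 is separated in the opposite direction, and COL6A1 overlaps.

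Basement membrane genes were split by chain. COL4A1 and COL4A2, which make the common collagen IV network and share a promoter region on chr13, both missed the threshold. COL4A2 (chr13:110307284-110513209) had 5.53, 5.37 and 5.18 in estradiol with astrocytes and 5.93, 5.77 and 5.48 in vehicle with astrocytes, against 5.79, 5.94 and 5.75 in estradiol alone and 5.71, 5.83 and 5.84 in vehicle alone. The arrays of estradiol with astrocytes were the lower ones, while those of vehicle with astrocytes overlapped with cells alone. Over both treatments COL4A2 was at −0.27 (SE 0.13, adjusted p = 0.104), a sign that turned under quantile scaling (0.04). COL4A1 was at 0.17 (adjusted p = 0.464).

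Of the chains of the more restricted collagen IV networks, COL4A3, COL4A4 and COL4A5 passed and COL4A6 did not. With the array SD as a covariate COL4A3, COL4A4 and COL4A5 were at 0.13, 0.20 and 0.11, and none passed (adjusted p = 0.633, 0.384 and 0.598). Their difference from COL4A1 and COL4A2 was not tested. COL4A4 rose by 0.74 (SE 0.20, adjusted p = 0.0155) and COL4A3, its neighbour read the other way on chr2, by 0.57 (adjusted p = 0.0294). COL4A5 rose by 0.81 (SE 0.23, adjusted p = 0.0183), and COL4A6, read the other way from a start 380 bases off on the X chromosome, was at 0.21 (adjusted p = 0.214). Altogether 3 of 6 basement membrane chains were higher and none was lower, with a median of 0.39. Among all genes 24.5% were higher and 23.0% lower. Of the multiplexins, collagens of basement membrane zones, COL18A1 rose by 0.55 (SE 0.18, adjusted p = 0.0272). It gives rise to the fragment endostatin. COL15A1 was at 0.42 (adjusted p = 0.130).

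The short-chain collagens moved apart. COL8A1 (chr3:99638594-99799217), a network collagen of vessel walls and of Descemet's membrane in the eye, had signals of 4.47, 4.80 and 3.86 in estradiol with astrocytes and 4.998, 4.72 and 3.74 in vehicle with astrocytes. It had 5.82, 5.11 and 5.42 in estradiol alone and 5.48, 5.62 and 4.97 in vehicle alone. Only replicate 1 of vehicle with astrocytes reached the range of cells alone. COL8A1 fell by 0.97 (SE 0.25, adjusted p = 0.0132) and by 1.14 without replicate 2 of both co-culture groups (adjusted p = 0.00996), and with the array SD as a covariate it was at −1.003 (adjusted p = 0.0570). Its partner chain COL8A2 rose by 0.82 (SE 0.24, adjusted p = 0.0189), and the difference between these partners was not tested. COL10A1, the chain of the hypertrophic cartilage collagen, was at 0.62 (adjusted p = 0.0796).

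Among the transmembrane collagens, which cross the cell membrane and can shed their outer part, COL13A1 fell and the others rose. COL13A1 (chr10:69801906-69959144) had 5.94, 6.27 and 5.88 in estradiol with astrocytes and 6.62, 6.65 and 5.92 in vehicle with astrocytes, against 6.67, 6.66 and 6.70 in estradiol alone and 6.50, 6.80 and 6.77 in vehicle alone. The arrays of estradiol with astrocytes were clear of cells alone, but replicates 1 and 2 of vehicle with astrocytes lay within the range of cells alone. The change was −0.47 (SE 0.16, adjusted p = 0.0337), its call was lost in 8 of 12 fits that left out 1 array, and under quantile scaling the sign turned to 0.06. With the array SD as a covariate it was −0.66 (adjusted p = 0.0325). COL23A1 rose by 0.72 (adjusted p = 0.0192) and COL25A1, whose shed part binds amyloid, by 0.49 (adjusted p = 0.0445), a call lost without replicate 2 of both co-culture groups (0.37, adjusted p = 0.101).

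COL26A1 and COL28A1, the remaining members, were at 0.20 (adjusted p = 0.533) and 0.18 (adjusted p = 0.428). Over the whole family 36 of 42 genes had a positive change and the median was 0.49, against 52.9% positive and a median of 0.07 over all genes. COL5A1, COL6A2, COL11A2 and COL16A1 were higher without overlap of the 6 and 6 arrays, where 12.2% of all genes were. For COL11A2 this holds for its brightest probe set and not for its others.

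The astrocyte comparison was also made under each treatment. With estradiol, COL12A1 (−2.10, SE 0.39, adjusted p = 0.0310), COL6A2 (0.63, SE 0.18, adjusted p = 0.0454) and COL11A2 (1.14, SE 0.34, adjusted p = 0.0475) passed in limma. That is 2 higher and 1 lower of 42, beside 5.03% of all genes higher and 8.15% lower. COL16A1 was next, at 1.01 (adjusted p = 0.0532). Groups did not overlap for 19 higher and 4 lower collagens, and the same held for 27.0% and 23.9% of all genes. The 4 lower genes were COL12A1, COL8A1, COL13A1 and COL4A2.

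With vehicle none of the 42 passed, where 0.0557% of all genes did, and 14 had an unadjusted p under 0.05, where 28.2% of all genes did. COL12A1 was at −1.76 (SE 0.39, adjusted p = 0.0763), COL6A2 at 0.53 (adjusted p = 0.115), COL9A2 at 0.70 (adjusted p = 0.132) and COL11A2 at 0.88 (adjusted p = 0.134). Groups did not overlap for 10 higher collagens (23.4% of all genes) and for 1 lower, COL12A1 (18.4% of all genes). The median change was 0.55 with estradiol and 0.32 with vehicle, and 34 genes were positive and 5 negative under both treatments. The fit draws its estimate of spread from all 12 arrays, and the mean of both comparisons is built from the same arrays, so these counts are not separate evidence. The number of calls with vehicle depended on replicate 2 of estradiol with astrocytes, an array outside the comparison that adds to the pooled spread. Without it 14 collagens and 34.0% of all genes passed.

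**Figure D2:**
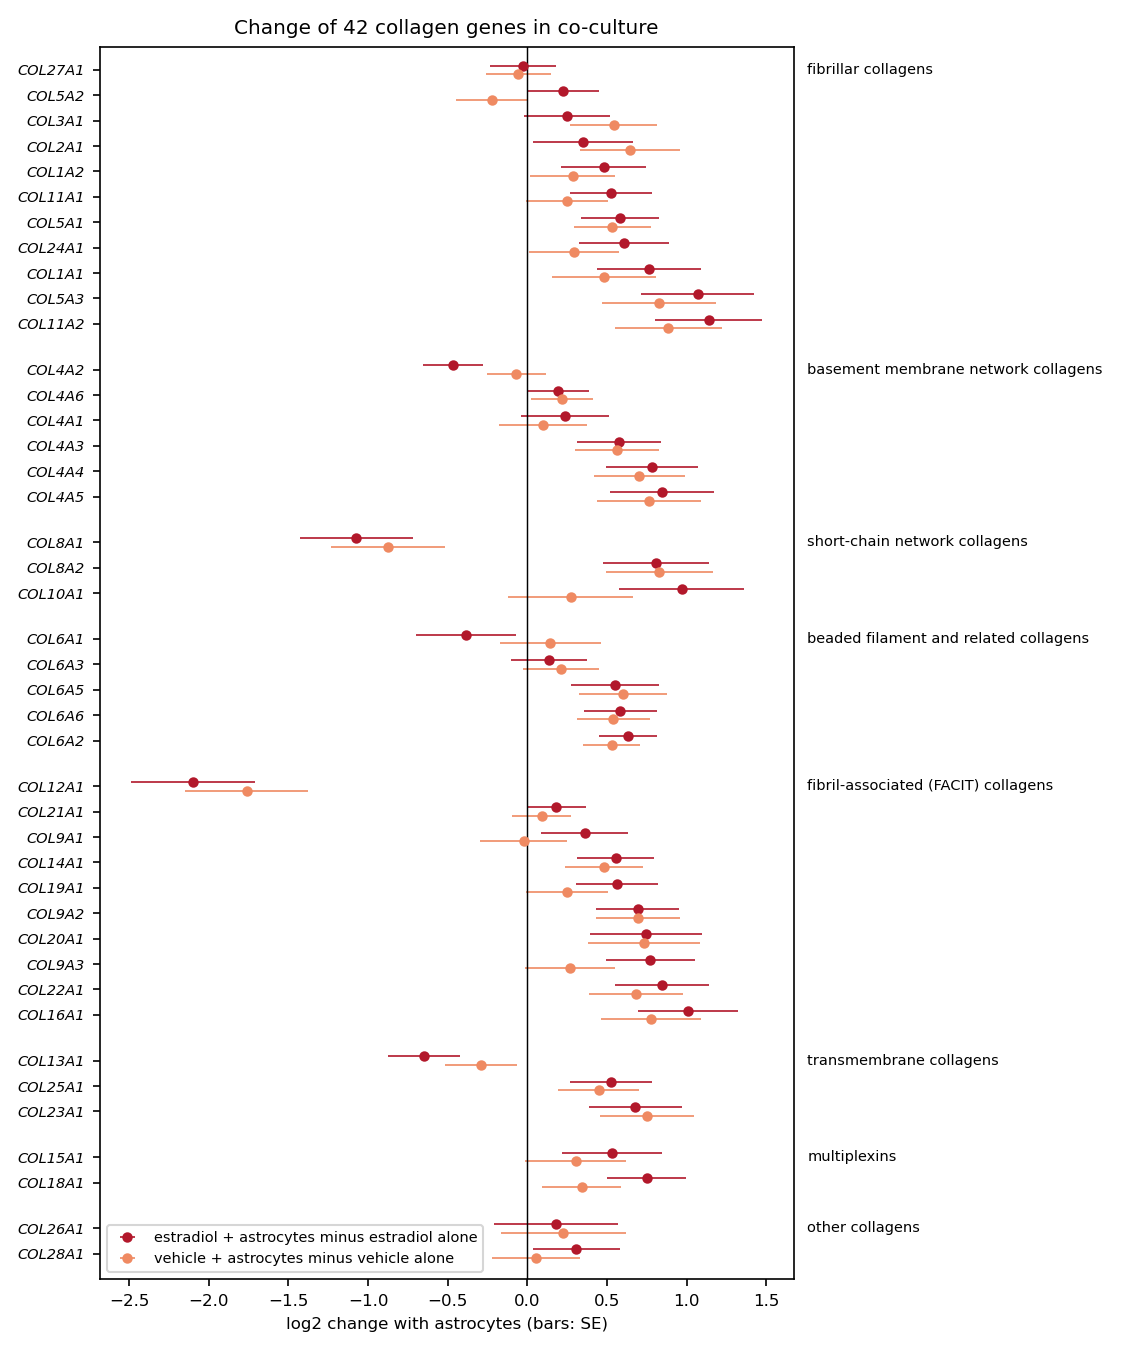
Log2 change with astrocytes (x axis) of the 42 collagen genes (y axis, by class), under estradiol and under vehicle, with bars for the SE of limma's fit. Most points lie right of 0, COL12A1 lies at −2.10 and −1.76, and COL8A1 and COL13A1 lie left of 0 under both treatments.

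Signal and change were related over all genes, and the collagens were read against that. Genes were divided into 4 equal parts by mean signal. From the dimmest to the brightest, the median change over all genes was 0.41, 0.38, −0.34 and −0.58. Collagens numbered 12, 15, 12 and 3 in these parts and their medians were 0.40, 0.49, 0.59 and −0.12. In the dimmest part the collagens followed all genes. In the third part, where all genes had a median below 0, 9 of 12 collagens passed as higher, against 17.2% of all genes there, and 1 passed as lower, against 38.7%. COL11A2, COL16A1, COL5A3, COL5A1 and COL18A1 were among these 9. No detection call was used here, so a dim probe set cannot be told from background, and signals of different probe sets do not rank RNA amounts.

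**Figure D3:**
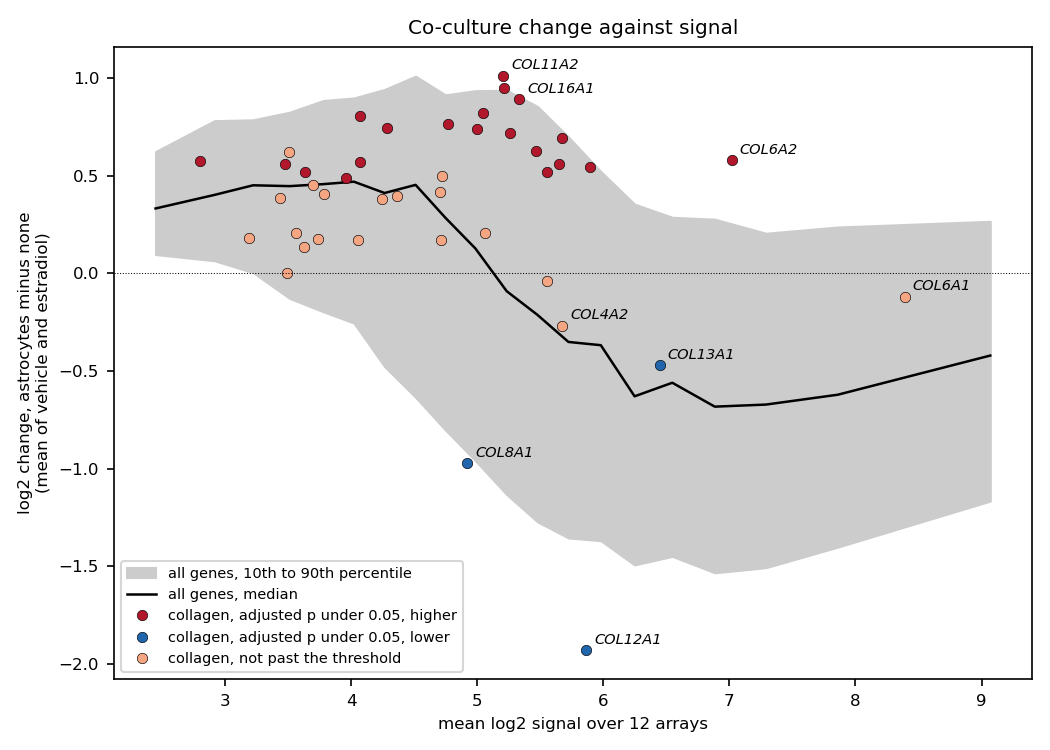
Log2 change with astrocytes over both treatments (y axis) against mean log2 signal over the 12 arrays (x axis), with collagens as points, the median of all genes as a line and their 10th to 90th percentile as a band. COL12A1 (−1.93) lies below the band, COL6A2 (0.58) and COL11A2 (1.01) lie above it, and most dim collagens lie inside it.

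The range of signal of the arrays moved with most collagen signals. Across the 6 co-cultured arrays 32 of 42 collagens had a correlation with the array SD below −0.8, and across the 6 arrays of cells alone 31 of 42 did, against 30.7% and 23.7% of all genes. Points of such a correlation share the array, and it is given as a description. COL12A1 was different, with correlations of 0.55 and 0.81, as were COL6A1 with 0.88 and 0.59 and COL8A1 with −0.25 and 0.87. Replicate 2 of estradiol with astrocytes, the array with the smallest SD, was the highest of all 12 for 32 of 42 collagens.

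With the array SD as a covariate, 2 collagens passed, COL12A1 and COL13A1, both lower, and 13.6% of all genes did. The collagen median became 0.03, 22 of 42 changes were positive, and 32 of 42 were nearer to 0 than before. No higher call was kept, COL6A2 being at 0.35 and COL11A2 at 0.33. Group and array SD overlap only in part, since vehicle alone replicate 3 had a smaller SD than replicate 1 of each co-culture group, and the effects of the 2 on the collagen signals cannot be fully told apart.

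**Figure D4:**
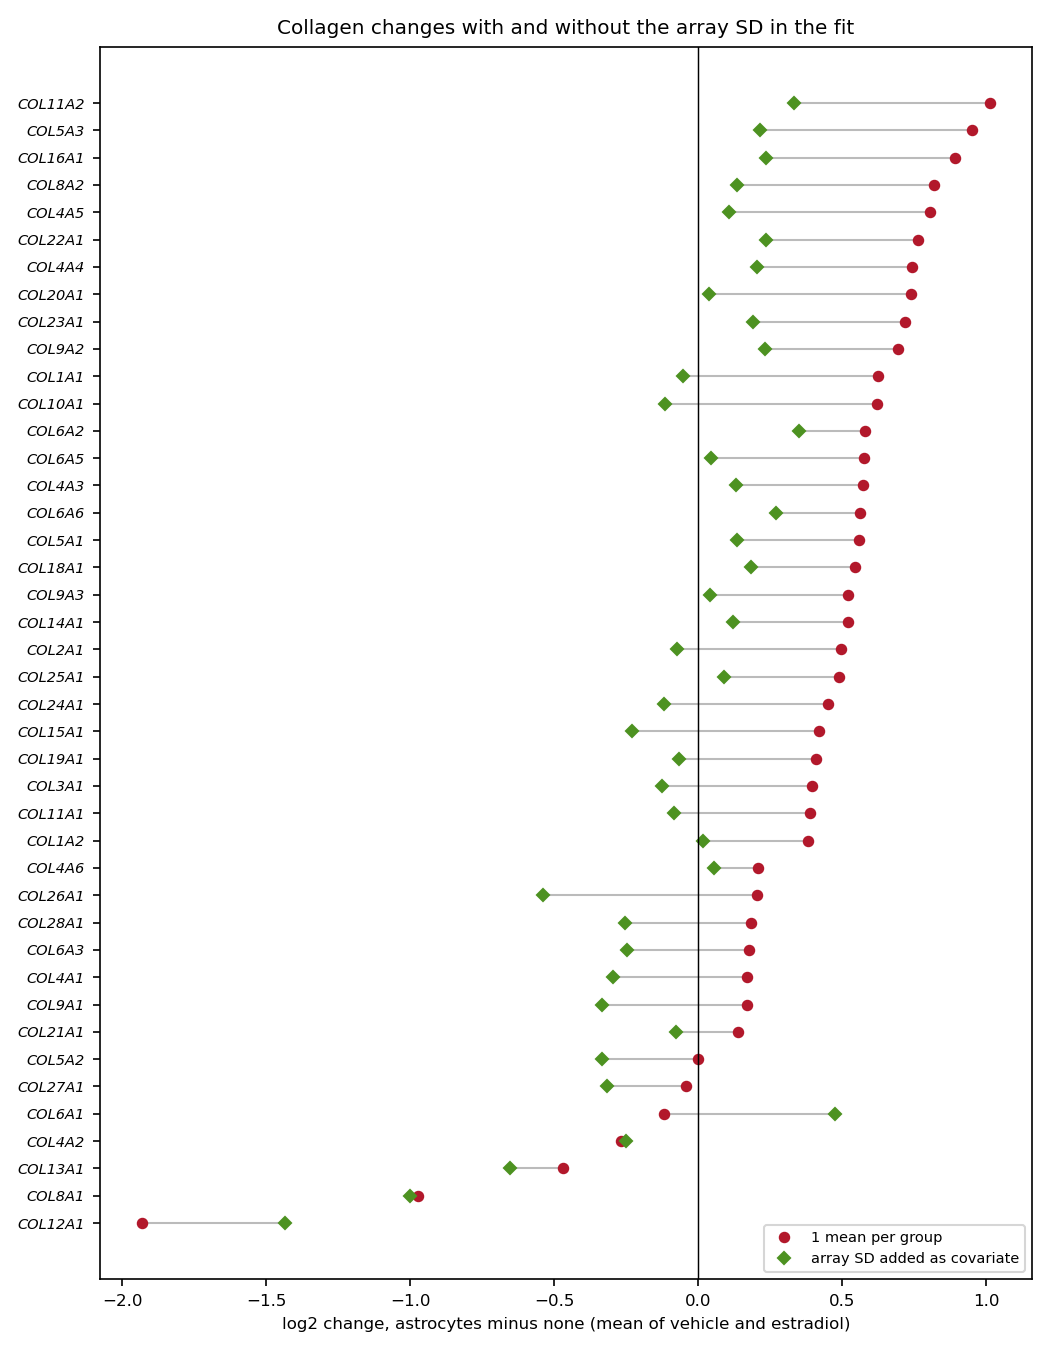
Log2 change with astrocytes over both treatments (x axis) of each collagen gene (y axis), from the fit with 1 mean per group (circles) and with the array SD added as a covariate (diamonds). COL12A1 stays at −1.44 and COL8A1 at −1.003. With the covariate 32 of 42 changes are nearer to 0 and 22 of 42 are positive. Some positive changes cross 0 and end further from it, such as COL26A1 (0.20 to −0.54).

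Markers of other cells were read beside the collagens. Of 9 markers of fibroblasts and meningeal cells, the usual collagen producers around the brain, THY1, FAP and TCF21 passed as higher and none as lower, where 24.5% of all genes were higher. All 9 changes were positive, as were 52.9% of all genes. In the dimmest part by signal, where FAP lay (percentile 8.68), 89.2% of all genes were positive and 37.7% higher. With the array SD as a covariate THY1, FAP and TCF21 were at 0.17, 0.19 and 0.24 and none passed (adjusted p = 0.551, 0.514 and 0.298). Their summed signal, as log2, was 6.94 to 7.71 in estradiol with astrocytes and 7.11 to 7.29 in vehicle with astrocytes, against 6.68 to 6.83 in estradiol alone and 6.69 to 6.83 in vehicle alone. DCN and LUM, the defining fibroblast proteoglycans, did not pass, and their signals lay at percentiles 3.89 and 0.53 of all genes. Log2 array signals have no zero, so no marker can be at 0.

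Of 8 astrocyte markers 4 were higher (GFAP, S100B, ALDH1L1 and SLC1A2) and 2 lower (SLC1A3 and GJA1). Among all genes 24.5% were higher and 23.0% lower. Their summed signal was 8.07 to 8.44 in estradiol with astrocytes and 8.06 to 8.32 in vehicle with astrocytes, against 8.36 to 8.44 in estradiol alone and 8.25 to 8.36 in vehicle alone. None of these 6 calls held with the array SD as a covariate. Among the other lists, 3 of 7 microglial markers were higher and 0 lower. Of 4 markers of the oligodendrocyte lineage 2 were higher and 0 lower. Of 4 neuronal markers 2 were higher and 1 lower, and none of 6 endothelial and pericyte markers passed. These counts stand beside the same 24.5% and 23.0% of all genes. With the array SD as a covariate no microglial or oligodendrocyte marker passed, and of the neuronal markers only STMN2 did (0.60, adjusted p = 0.0302). The oligodendrocyte sum was 6.68 to 7.20 in estradiol with astrocytes and 6.66 to 7.11 in vehicle with astrocytes, against 6.53 to 6.65 in estradiol alone and 6.49 to 6.73 in vehicle alone. The microglial sum was 8.32 to 8.66 in estradiol with astrocytes and 8.34 to 8.76 in vehicle with astrocytes, against 8.62 to 8.76 in estradiol alone and 8.61 to 8.67 in vehicle alone. The part of any of these cell types in the collagen signals was not tested.

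Estradiol was compared with vehicle in the presence and in the absence of astrocytes, the comparison named in the title of the series. No collagen passed in limma in either, no other gene did (0% of all genes), and no collagen had an unadjusted p under 0.05, where 0.791% of all genes did with astrocytes and 0.00557% without. With astrocytes the changes ran from −0.45 for COL6A1 to 0.51 for COL10A1, and 26 of 42 were positive, against 50.5% of all genes. COL4A2 was at −0.37 (SE 0.19), averaging 5.36 ± 0.18 in estradiol with astrocytes and 5.73 ± 0.23 in vehicle with astrocytes (SD, n = 3 each). COL13A1 was at −0.37 (SE 0.23), averaging 6.03 ± 0.21 in estradiol with astrocytes and 6.40 ± 0.41 in vehicle with astrocytes (SD, n = 3 each). COL12A1 was at −0.22, averaging 4.79 ± 0.39 in estradiol with astrocytes and 5.01 ± 0.92 in vehicle with astrocytes (SD, n = 3 each). Between arrays of the same replicate number, COL4A2 differed by −0.40, −0.41 and −0.30 and COL13A1 by −0.69, −0.38 and −0.04, estradiol minus vehicle. Such differences had 1 sign in all 3 pairs for 12 of 42 collagens, against 18.9% of all genes. For none of the 42 were the arrays of these groups free of overlap, as they were for 2.18% of all genes. With the replicate number as a block over all 12 arrays no collagen passed either (COL4A2 at −0.37, SE 0.18).

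Without astrocytes the changes with estradiol ran from −0.21 for COL9A2 to 0.22 for COL3A1, with 15 of 42 positive, against 55.5% of all genes, COL18A1 at −0.20 and COL5A2 at −0.17. Again no collagen was free of overlap, against 3.21% of all genes. COL12A1 averaged 6.89 ± 0.12 in estradiol alone and 6.77 ± 0.30 in vehicle alone (SD, n = 3 each). The 95% intervals of the collagen changes reached from −1.04 to 0.97 without astrocytes and from −1.14 to 1.37 with them, so changes of 2-fold were not excluded for every gene.

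The interaction, which asks whether the astrocyte difference depended on estradiol, gave no call among collagens or all genes (0% of all genes), and no collagen had an unadjusted p under 0.05, where 0.173% of all genes did. COL10A1 (0.70), COL9A3 (0.50), COL5A2 (0.44) and COL4A2 (−0.40) had the smallest p. The astrocyte changes of COL10A1 were 0.97 with estradiol and 0.27 with vehicle, and those of COL4A2 were −0.47 and −0.07. COL12A1 had an interaction of −0.34 and COL6A2 of 0.10. Intervals ran from −1.54 to 1.91 over the family.

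The genes that modify, carry and bind collagen were counted from 7 lists over both treatments, all in limma. Those for chaperoning and secretion held 7 lower and 0 higher genes of 14, with a median of −0.52, where 23.0% of all genes were lower. Their percentiles of mean signal ran from 51.2 (FKBP7) to 96.9 (SERPINH1), apart from MIA2 at 42.5 and CREB3L1 at 48.9. In the third and the brightest part by signal, 38.7% and 36.4% of all genes were lower, with medians of −0.34 and −0.58. SEC24D, a coat protein of the vesicles that carry procollagen from the endoplasmic reticulum, had 6.59, 4.78 and 5.53 in estradiol with astrocytes and 6.73, 5.53 and 5.82 in vehicle with astrocytes, against 7.94, 7.97 and 8.03 in estradiol alone and 7.98, 8.13 and 7.72 in vehicle alone. It fell by 2.13 (SE 0.30, adjusted p = 0.00246) with no overlap. MIA3, the receptor that loads procollagen into these carriers, fell by 1.93 (adjusted p = 0.00281), and KLHL12, which helps to enlarge them, by 0.86 (adjusted p = 0.00509). These 3 were also lower with the array SD as a covariate (SEC24D −1.31, MIA3 −1.18, KLHL12 −0.52, adjusted p = 0.00431, 0.00815 and 0.0397).

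FKBP14, a folding isomerase of the endoplasmic reticulum, fell by 1.25 (adjusted p = 0.00573) and its relative FKBP10 by 0.44 (adjusted p = 0.0492), a sign that turned under quantile scaling (0.11). SEC23A, which pairs with SEC24D in the coat, fell by 1.07 (adjusted p = 0.0457) and TMEM39A, whose worm relative is needed for collagen secretion, by 0.91 (adjusted p = 0.0245). In the fit with the array SD SEC23A turned to 0.23, TMEM39A was at −0.06 (adjusted p = 0.846), and FKBP14 at −0.56 (adjusted p = 0.0529). The list then held 3 lower genes, 1 higher gene and a median of 0.02, with 7 of 14 positive. Without replicate 2 of both co-culture groups SEC23A was at −0.52 (adjusted p = 0.0468), TMEM39A at −0.60 (adjusted p = 0.0321), and the list held 6 lower genes. SERPINH1, the collagen chaperone HSP47, was at −0.35 (adjusted p = 0.289).

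Of 13 genes for chain hydroxylation and glycosylation, 4 were lower and 1 higher, with a median of −0.48, against 23.0% lower and 24.5% higher among all genes. Their percentiles of mean signal ran from 57.3 (P3H4) to 99.5 (P4HB), apart from P4HA3 at 17.9. In the third and the brightest part by signal, 38.7% and 36.4% of all genes were lower, with medians of −0.34 and −0.58. PLOD2, the lysyl hydroxylase of the chain ends, had 8.20, 3.95 and 7.15 in estradiol with astrocytes and 8.43, 6.58 and 6.82 in vehicle with astrocytes, against 8.54, 8.41 and 8.58 in estradiol alone and 8.69, 8.62 and 8.11 in vehicle alone. Replicate 2 of estradiol with astrocytes was far below the rest. PLOD2 fell by 1.64 (adjusted p = 0.0422), by 0.84 without replicate 2 of both co-culture groups (adjusted p = 0.0473), and stood at 0.26 with the array SD as a covariate. The prolyl 3-hydroxylases P3H2 (−1.36, adjusted p = 0.0163) and P3H1 (−0.68, adjusted p = 0.0346) and the prolyl 4-hydroxylase subunit P4HA2 (−0.64, adjusted p = 0.0388) fell, and P3H4 rose by 0.50 (adjusted p = 0.0447). This list held, with the array SD as a covariate, 4 higher and 0 lower genes. The higher genes were P4HA1, PLOD1, PLOD3 and COLGALT1 (0.80, 0.63, 0.86 and 0.57), and the calls of PLOD2, P3H2, P3H1, P4HA2 and P3H4 were lost.

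In cross-linking 2 of 6 genes were lower and 1 higher, against 23.0% and 24.5% of all genes. LOX, the lysyl oxidase that cross-links fibrils, had 6.57, 4.22 and 5.64 in estradiol with astrocytes and 6.63, 5.10 and 5.86 in vehicle with astrocytes, against 8.20, 7.87 and 8.10 in estradiol alone and 8.21, 8.06 and 7.43 in vehicle alone. All co-cultured arrays were below the others. The fall was 2.31 (SE 0.37, adjusted p = 0.00356), 1.80 without replicate 2 of both co-culture groups (adjusted p = 0.00299) and 1.11 with the array SD as a covariate (adjusted p = 0.00241). PXDN, which cross-links collagen IV, fell by 1.65 (adjusted p = 0.0136), and LOXL1 rose by 0.38 (adjusted p = 0.0409). The call of LOXL1 was lost in 9 of 12 fits that left out 1 array. With the array SD as a covariate PXDN was at −0.37 and did not pass (adjusted p = 0.411). LOXL1 (0.51, adjusted p = 0.0400) and LOXL4 (0.63, adjusted p = 0.0142) passed as higher in that fit.

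The collagen receptors held 3 lower and 2 higher genes of 11, where 23.0% of all genes were lower and 24.5% higher. ITGA2, the collagen-binding integrin subunit alpha 2, fell by 2.48 (SE 0.63, adjusted p = 0.0118), ADGRG6, an adhesion receptor that binds collagen IV, by 1.43 (adjusted p = 0.00586) and ADGRG1, which binds collagen III, by 0.71 (adjusted p = 0.0421). ITGA11, another collagen-binding integrin subunit, rose by 0.70 (adjusted p = 0.0327) and the platelet collagen receptor GP6 by 1.06 (adjusted p = 0.0415). GP6 was at 0.57 without replicate 2 of both co-culture groups (adjusted p = 0.0381) and at −0.14 with the array SD as a covariate, and its call was lost in 7 of 12 fits that left out 1 array. Without replicate 2 of both co-culture groups ITGA2 was at −1.64 (adjusted p = 0.00575), and the calls of ITGA11 (0.49, adjusted p = 0.0697) and ADGRG1 (−0.35, adjusted p = 0.0693) were lost. ADGRG6 was, with the array SD as a covariate, the gene of this list that passed, at −0.56 (adjusted p = 0.0400), and ITGA2 stood at −0.51.

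Processing and degradation held more higher than lower genes. Of 11 enzymes that trim procollagen or help to, ADAMTS14 (1.00, adjusted p = 0.0167), PCOLCE (0.69, adjusted p = 0.0180), MEP1A (0.66, adjusted p = 0.0111) and TLL1 (0.55, adjusted p = 0.0214) were higher and ADAMTS3 was lower (−0.55, adjusted p = 0.0449). Among all genes 24.5% were higher and 23.0% lower. In the fit with the array SD, 1 processing gene was higher and 1 lower, with a median of −0.06. The higher gene was BMP1 (0.52, adjusted p = 0.0449) and the lower one ADAMTS3 (−0.80, adjusted p = 0.0422). The calls of ADAMTS14, PCOLCE, MEP1A and TLL1 were lost (adjusted p = 0.558, 0.410, 0.147 and 0.431). Of 10 degradation genes, the collagenase MMP1 (−1.18, adjusted p = 0.0125) and the membrane-bound collagenase MMP14 (−0.63, adjusted p = 0.0104) were lower. MMP2 (0.78, adjusted p = 0.0129), FAP (0.67, adjusted p = 0.0222), MMP9 (0.65, adjusted p = 0.0298) and MMP13 (0.56, adjusted p = 0.0463) were higher. None of the 10 degradation genes passed with the array SD as a covariate.

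Among 8 measured partners of fibrils, THBS1 (−1.57, adjusted p = 0.0113) and FN1, fibronectin (−1.55, adjusted p = 0.0144), were lower. SPARC (0.69, adjusted p = 0.0160), FMOD (0.67, adjusted p = 0.0258), COMP (0.66, adjusted p = 0.0423) and BGN (0.83, adjusted p = 0.0443) were higher. None of the 8 passed with the array SD as a covariate, and BGN and COMP turned sign (−0.12 and −0.05). Without replicate 2 of both co-culture groups the calls of P4HA2, P3H4, FKBP10, MMP13, BGN and COMP were lost (−0.33, 0.34, −0.24, 0.26, 0.49 and 0.42, adjusted p = 0.0563, 0.0855, 0.0901, 0.0673, 0.122 and 0.0706). Under estradiol 4 secretion genes, 2 cross-linking genes, 2 degradation genes, 1 receptor and 1 partner gene passed as lower, and 1 processing and 1 degradation gene as higher, where 8.15% of all genes were lower and 5.03% higher. Under vehicle no gene of the 7 lists passed, where 0.0557% of all genes did.

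**Figure D5:**
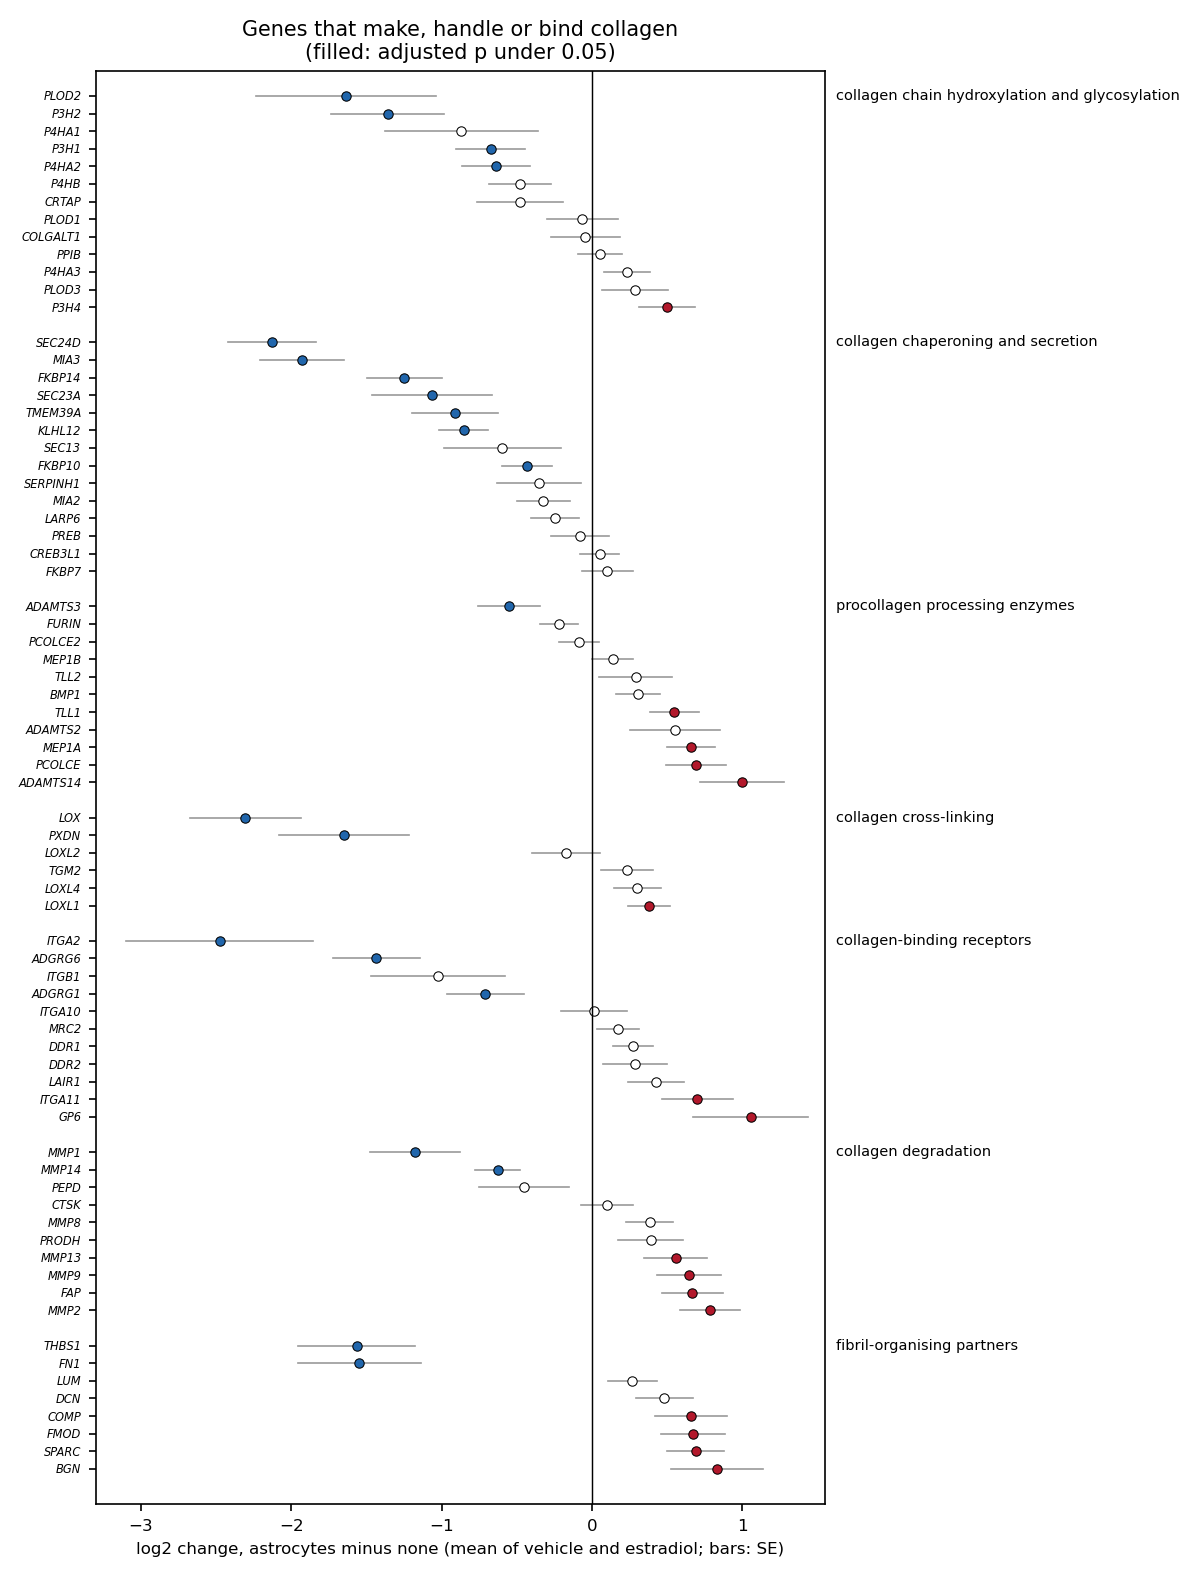
Log2 change with astrocytes over both treatments (x axis, bars for SE) of the measured genes of the 7 lists (y axis, by list), filled where the adjusted p was under 0.05. The falls of ITGA2 (−2.48), LOX (−2.31), SEC24D (−2.13) and MIA3 (−1.93) reach furthest left, and GP6 (1.06) and ADAMTS14 (1.00) furthest right.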

How the data were processed

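The deposited values are log2 signals of 33297 probe sets on 12 Affymetrix Human Gene ST arrays, and per the submitters' processing notes RMA and Partek were used, without versions, roles or order. Genes were named from the platform's probe table, which gave 1 symbol for 19181 probe sets, several for 2055 and none for 12061. For the 895 genes with several probe sets, that with the highest mean was kept. No filter on low values was set. Groups came from the labels. limma 3.58.1 in R 4.3.3 fitted 1 mean per group over all 12 arrays (lmFit, contrasts.fit, eBayes), two-sided, with Benjamini-Hochberg adjustment over 17958 genes and a threshold of 0.05. The scripts were tested on simulated data. With 3 arrays per group the precision is limited.

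The collagen genes, the lists and the alternatives were chosen with earlier results of these data known. Genes named were the 10 collagens with the highest mean, those past the threshold (the 12 with the smallest p where more passed), the 4 with the smallest p in each comparison and those whose call was lost or reversed, and list members past the threshold or among the 4 smallest p. Other collagens of a class were named after their values were seen. The alternatives were a replicate block, quantile scaling, centring on the median, the array SD as a covariate, genes above the median signal, averaging the probe sets of a gene, a trended and robust eBayes, the compared groups only, a threshold of 0.10, leaving out replicate 2 of both co-culture groups and leaving out each array. The labels do not say what a replicate number marks. After subtracting group means, arrays of the same number were correlated above 0.1 in all 3 pairs for only 2 groups. These were estradiol with astrocytes and vehicle with astrocytes (r = 0.789, 0.756 and 0.214). On these values alone, differences within replicate number were given for these groups only. The main fit used no pairing, and the replicate block was set over all 12 arrays, the other groups included. Promoter windows and gene positions are from RefSeq on GRCh38.p14.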

Additional observations from a re-analysis of the deposited data

How the results depend on the processing

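Over both treatments 23 collagens passed, and the count was 26 with a replicate block, 18 without replicate 2 of both co-culture groups, 15 with quantile scaling, 10 of the 15 genes above the median signal and 2 with the array SD as a covariate. Leaving out each array gave 9 to 29, with 9 without vehicle alone replicate 1, 10 without estradiol alone replicate 1, 13 without vehicle alone replicate 2, vehicle with astrocytes replicate 2 or vehicle with astrocytes replicate 3, and 14 without estradiol alone replicate 3. Under estradiol 3 passed, with 19 at a threshold of 0.10, 19 with a replicate block, 1 with quantile scaling, 0 with the array SD as a covariate, 0 with the compared groups only, and 0 to 23 leaving out each array, the 23 without estradiol with astrocytes replicate 1. Under vehicle 0 passed, with 1 at a threshold of 0.10, 3 with a replicate block, 1 with the array SD as a covariate, 1 with the compared groups only, and 0 to 14 leaving out each array, the 14 without estradiol with astrocytes replicate 2. Causes of these differing counts were not tested. Where genes or arrays were left out, fewer of them entered the fit. Estradiol comparisons and the interaction gave 0 under every alternative run, the replicate block included. COL12A1, COL6A2, COL11A2, COL16A1 and COL8A1 passed over both treatments in all 12 fits that left out 1 array, with adjusted p of at most 0.0134, 0.0266, 0.0303, 0.0359 and 0.0393.

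Of 2129 alternatives for 106 gene results, 1752 kept direction and side of the threshold, 289 lost it, 44 gained it and 44 turned sign, none of these past the threshold. These 106 results do not cover every collagen. Others outside them turned sign too, such as COL1A1 with the array SD as a covariate (−0.05). In that fit 22 of 42 collagen changes over both treatments were positive, against 36 in the main fit. Among the 106 results, the turned values over both treatments with this covariate were ADGRG1 0.0566, BGN −0.12, COMP −0.0474, GP6 −0.14, P3H1 4e-04, P4HA2 0.0348, PLOD2 0.26, SEC23A 0.23 and COL6A1 0.47, beside COL6A1 0.28 under estradiol and COL9A3 −0.15 under vehicle. With quantile scaling they were COL13A1 0.17 (vehicle) and 0.0622 (both), COL27A1 0.34 (estradiol), 0.18 (vehicle) and 0.26 (both), COL4A2 0.24 (vehicle) and 0.0401 (both), COL6A1 0.20 (estradiol) and 0.35 (both) and FKBP10 0.11 (both). Centring turned COL27A1 to 0.0595 (estradiol), 0.0112 (vehicle) and 0.0353 (both). Without replicate 2 of both co-culture groups COL6A1 was 0.0053 (estradiol) and 0.14 (both), and COL10A1 was −0.0265 for estradiol against vehicle with astrocytes. Leaving out 1 array gave ranges across 0 for COL10A1 with estradiol against vehicle in co-culture (−0.0015 to 0.80), for COL18A1 (−0.36 to 0.0045), COL5A2 (−0.29 to 0.0071) and COL9A2 (−0.39 to 0.0042) with estradiol against vehicle in cells alone, and for the astrocyte changes of COL27A1 (−0.17 to 0.077 under estradiol, −0.14 to 0.058 under vehicle, −0.11 to 0.015 over both), COL4A2 (−0.17 to 0.056 under vehicle) and COL6A1 (−0.60 to 0.0053 under estradiol, −0.10 to 0.27 under vehicle, −0.24 to 0.075 over both).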

Other observations

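Probe sets left out of the collagen genes gave further values. The probe set shared by MIR711 and COL7A1, the anchoring fibril collagen, averaged 5.11 ± 0.31 in estradiol with astrocytes and 5.03 ± 0.21 in vehicle with astrocytes, against 4.86 ± 0.24 in estradiol alone and 4.89 ± 0.16 in vehicle alone (SD, n = 3 each). The probe set shared by PNLIP and COL1A2 averaged 3.23 ± 0.36 in estradiol with astrocytes and 2.97 ± 0.29 in vehicle with astrocytes, against 2.59 ± 0.16 in estradiol alone and 2.70 ± 0.14 in vehicle alone. The other probe sets of COL11A2 held identical values to each other and averaged 5.64 ± 0.83 in estradiol with astrocytes and 5.80 ± 0.74 in vehicle with astrocytes, against 4.38 ± 0.25 in estradiol alone and 4.63 ± 0.52 in vehicle alone, so all 3 probe sets of COL11A2 were higher in co-culture on average.

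COL6A1, the collagen with the brightest probe set, was compared with every other gene over the 12 arrays as a description. Among collagens COL4A2 (r = 0.459), COL12A1 (0.414) and COL13A1 (0.203) were most like it, and without replicate 2 of both co-culture groups r was 0.262, 0.102 and 0.184 over 10 arrays. Outside the family BMP4 (0.965), CTSA (0.949) and FEZ2 (0.948) were most like it, with r of 0.876, 0.870 and 0.787 over the 10 arrays. These points share arrays and groups, and replicate 2 of estradiol with astrocytes was the lowest array for COL6A1.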
